A study of Mus musculus with 30 samples.

Results

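The genes described here are the WNT ligands Wnt2, Wnt4, Wnt5a, Wnt5b and Wnt9a, the secreted antagonists Sfrp1, Sfrp2, Dkk2 and Dkk3, and Axin2, in cultured mouse aortic smooth muscle cells in which the long noncoding RNA CASC15 was lowered or raised. These 10 genes were taken by name from the 78334 gene identifiers of the count table, and each symbol matched 1 identifier. A filter on low counts left 9 of the 10 for testing in run 2 (not Wnt2) and 8 of the 10 in run 3 (not Wnt2 or Sfrp1). Levels are counts scaled to library size (CPM) and by the trimmed mean of M-values.

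WNT proteins are secreted lipid-modified glycoproteins that bind Frizzled receptors. In the canonical branch, Frizzled with the co-receptors LRP5 or LRP6 stops the Axin, APC and GSK3 complex from degrading beta-catenin, which then acts with TCF/LEF factors on target genes such as Axin2. Wnt5a, Wnt5b and often Wnt4 are known as ligands of beta-catenin-independent branches, which act through Frizzled, ROR and planar cell polarity proteins. Secreted Frizzled-related proteins (Sfrp) bind WNTs, and Dickkopf proteins such as Dkk2 bind LRP5 and LRP6, while Dkk3 is a divergent Dickkopf relative. In the vessel wall WNT signalling is known for roles in smooth muscle proliferation, migration and survival.

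The study sequenced 30 libraries in 2 runs, fitted apart here, with a batch label from P16 to P19 on each library. All cells were wild type, spent 48 h in serum-free medium and received, at least 24 h before the end point, an antisense oligonucleotide (GapmeR) or a plasmid by transfection, so the controls were transfected too. Run 2 held untreated cells: control GapmeR (2 libraries, P17 and P18), GapmeR against total CASC15 (2, P17 and P18), control plasmid (3, P17 to P19) and a plasmid overexpressing total CASC15 (3, P17 to P19). Run 3 held 5 groups of 4 libraries, 1 from each of P16 to P19. They were control GapmeR without treatment, with 10 ng/ml of angiotensin II, or with PDGF-BB at 10 to 30 ng/ml, the agents lasting 24 h, and a GapmeR against long CASC15 without treatment or with angiotensin II. The labels do not say whether libraries came from separate animals, so p-values measure the spread between these libraries, which may be technical. The growth protocol names mouse and rat cells, whereas each library is labelled mouse. In the titles and treatment labels of the knockdown and overexpression libraries the number after CASC counts up from one library to the next, whereas the library names give only total or long for the whole group. The groups follow the library names, and all are taken here as CASC15.

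Library totals were 18007199 to 21881959 in run 2 and 15771490 to 30362047 in run 3. The mouse CASC15 gene, 2610307P16Rik, rose from 6.42 ± 2.34 CPM (SD, n = 3) to 716 ± 174 CPM (n = 3) with the overexpression plasmid. It fell from 5.52 ± 0.53 to 2.87 ± 0.561 CPM (n = 4 each) with long knockdown. In control cells it was lower with PDGF-BB too, at 2.95 to 4.82 CPM against 4.94 to 6.01 untreated. Angiotensin II groups held 5.27 ± 0.63 CPM in controls and 3.04 ± 0.603 CPM with long knockdown. In the libraries labelled total knockdown 2610307P16Rik was at 9.73 and 8.29 CPM, against 7.66 and 6.37 in their controls, so these libraries did not show the labelled fall. Of the 7 smooth muscle markers, Acta2 (96.5 to 268 CPM in run 3) and Smtn (42.2 to 103) were well expressed. Myocd (0.435 to 3.39), Tagln (0.234 to 2.06) and Lmod1 (0.211 to 1.77 CPM) were low, Cnn1 had at most 4 counts in any library of run 3, and Myh11 at most 3 counts in its untreated controls. The epithelial adhesion gene Cdh1 was at 35.1 to 195 CPM in run 3, with Krt8 at 0.0934 to 5.1 CPM and Krt18 and Epcam at no more than 0.505 and 0.441 CPM. The leukocyte markers Ptprc, Adgre1 and Cd3e had no count in run 3, while Cd68 and Lyz2 reached 31 and 22 counts. The endothelial Cdh5 had at most 1 count there, and Pecam1, Vwf, Kdr and Tek reached 57, 24, 15 and 14. In bulk RNA, fewer cells of a type and less RNA per cell cannot be told apart.

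The promoters of Wnt5b, Wnt4 and Dkk2 are shown first, because Wnt5b and Dkk2 moved in opposite directions under PDGF-BB and Wnt4 moved opposite to Wnt5b under knockdown. RefSeq (GRCm38.p6) gave promoter windows for 7 of the 10 genes (not Wnt5a, Sfrp1 or Dkk3). Each line holds the 250 bases upstream of a transcript start, 5′ to 3′ on the gene's strand. Wnt5b had 3 annotated starts on the minus strand of chromosome 6, with windows chr6:119449387-119449636, chr6:119467212-119467461 and chr6:119544348-119544597. The Wnt4 window was chr4:137277385-137277634 on the plus strand, and the Dkk2 window chr3:132085042-132085291 on the plus strand. Capitals mark matches on either strand to 4 motifs, and neighbouring or overlapping matches run together. The letters searched for TCF/LEF factors, which carry the nuclear response to beta-catenin, were CTTTGAT. For AP-1, the Fos and Jun factor known for its response to growth factors, they were TGANTCA. For the GC box, known from the promoters of many housekeeping genes, they were GGGCGG. The CCAAT box was searched by the letters of its name.
Wnt5b start 1: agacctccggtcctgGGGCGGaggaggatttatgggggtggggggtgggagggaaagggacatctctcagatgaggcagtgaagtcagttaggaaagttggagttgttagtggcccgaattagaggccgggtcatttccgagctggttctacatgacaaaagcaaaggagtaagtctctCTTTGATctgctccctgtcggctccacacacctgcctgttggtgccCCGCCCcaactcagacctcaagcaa
Wnt5b start 2: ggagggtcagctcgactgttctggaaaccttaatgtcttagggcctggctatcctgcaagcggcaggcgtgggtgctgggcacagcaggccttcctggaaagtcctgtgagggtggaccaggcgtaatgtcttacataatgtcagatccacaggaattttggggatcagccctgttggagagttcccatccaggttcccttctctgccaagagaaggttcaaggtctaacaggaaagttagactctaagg
Wnt5b start 3: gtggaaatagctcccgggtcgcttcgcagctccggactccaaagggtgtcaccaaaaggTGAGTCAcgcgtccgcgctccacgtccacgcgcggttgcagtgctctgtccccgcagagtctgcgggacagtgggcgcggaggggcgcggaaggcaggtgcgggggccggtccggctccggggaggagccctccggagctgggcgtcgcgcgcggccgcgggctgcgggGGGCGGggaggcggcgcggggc
Wnt4: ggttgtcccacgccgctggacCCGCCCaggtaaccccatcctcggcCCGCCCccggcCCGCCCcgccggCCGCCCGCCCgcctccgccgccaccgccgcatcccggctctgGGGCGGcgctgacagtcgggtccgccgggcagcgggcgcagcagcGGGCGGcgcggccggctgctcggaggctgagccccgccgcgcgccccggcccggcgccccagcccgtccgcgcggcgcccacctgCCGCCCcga
Dkk2: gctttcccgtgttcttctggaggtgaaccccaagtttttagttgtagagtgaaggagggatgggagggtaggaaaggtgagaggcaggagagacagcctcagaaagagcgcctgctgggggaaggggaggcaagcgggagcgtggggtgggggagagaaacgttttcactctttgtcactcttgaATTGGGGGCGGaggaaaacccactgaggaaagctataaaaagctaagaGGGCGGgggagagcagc

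The first Wnt5b window held the TCF/LEF letters CTTTGAT at 71 to 65 bases before the start, together with 2 GC boxes. The third held the AP-1 letters TGAGTCA at 191 to 185 bases before the start and 1 GC box, and the second held none of the 4 motifs. Over 32851 promoter windows of this length, 3.21% held the TCF/LEF letters, 6.75% the AP-1 letters, 33.8% a CCAAT box and 32.7% a GC box. Wnt4 held 8 GC boxes, 2 of which overlapped, in a window of 85.2% G and C. Dkk2 held 1 CCAAT box directly beside a GC box, and a further GC box 17 to 12 bases before its start. Axin2 and Wnt9a held 2 and 5 GC boxes, Wnt2 a CCAAT box and a GC box, and Sfrp2 no match. These matches are letters in a window, and no binding was measured.

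Dkk3 was the most abundant of the genes per length of exon. In the untreated controls of run 3 it stood at 14.1 ± 2 CPM per kb (SD, n = 4). Wnt9a followed at 4.71 ± 0.261, Wnt4 at 3.44 ± 0.388, Sfrp2 at 2.49 ± 0.923, Wnt5a at 2.11 ± 0.359 and Wnt5b at 1.82 ± 0.977 CPM per kb. The last 3 lay within each other's spread. Dkk2 (0.255 ± 0.0881), Axin2 (0.174 ± 0.0566) and Sfrp1 (0.0504 ± 0.0317) were lower still on the same scale. Wnt2 had 0 counts in 29 of 30 libraries and 2 counts in 1 library labelled total knockdown, and a count of 0 allows up to 0.102 to 0.19 CPM depending on the library (3 counts, counting error only).

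**Figure D1:**
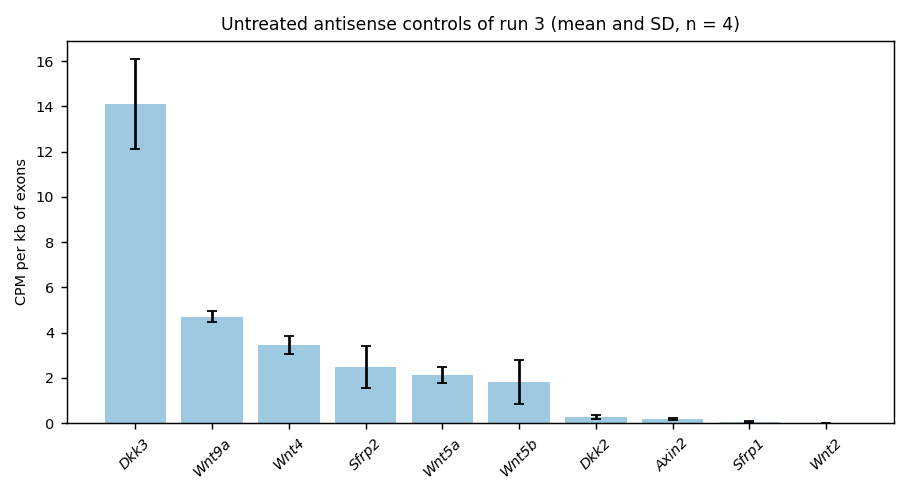
Level of each gene in CPM per kb of exon (bars, mean; error bars, SD; n = 4) in the untreated control GapmeR libraries of run 3. Dkk3, at 14.1 CPM per kb, stands above Wnt9a at 4.71, and Dkk2, Axin2, Sfrp1 and Wnt2 lie at or below 0.255.

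Wnt5b had larger fold changes in run 3 than the other genes of the set that passed the test. In run 3 its level was 2.73, 6.06, 7.88 and 2.61 CPM in the untreated controls of batches P16, P17, P18 and P19. With long knockdown it was 40.7, 44.3, 38.6 and 8.54 CPM in the same batch order. Every knockdown library was above every control library, and P19 was the lowest of the 4 knockdown libraries. The mean was 4.82 ± 2.59 CPM in controls and 33 ± 16.5 CPM with knockdown, and the fitted rise was 6.97-fold (edgeR quasi-likelihood adjusted p = 0.000736 for a log2 fold change of 2.80, SE 0.517). Within batches the log2 ratio was 3.90 in P16, 2.87 in P17, 2.29 in P18 and 1.71 in P19. Without batch P19 the log2 fold change was 2.91 (adjusted p = 3.96e-06).

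Under angiotensin II the same knockdown gave 42.1, 41.3, 36.6 and 10.7 CPM of Wnt5b, against 4.05, 5.34, 7.59 and 3.02 CPM in the controls. The groups again did not overlap (adjusted p = 0.00103 for a log2 fold change of 2.70, SE 0.52), with P19 lowest in both. Angiotensin II itself left Wnt5b at 5 ± 1.97 CPM in control cells (log2 fold change 0.09, SE 0.536). PDGF-BB took Wnt5b the other way, to 0.393, 0.565, 0.685 and 0.458 CPM, which is 7 to 13 counts a library. All 4 libraries lay below all 4 untreated controls, a fall by 3.15 on the log2 scale (SE 0.719, adjusted p = 0.00193). The comparisons with PDGF-BB and with long knockdown share the same 4 untreated control libraries.

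The order of Wnt5b in run 3 was therefore long knockdown (33 CPM) and long knockdown with angiotensin II (32.7), whose ranges overlapped, then the control with angiotensin II (5) and the untreated control (4.82), which overlapped too, then PDGF-BB (0.525). Neighbours in different steps did not overlap. The genes most like Wnt5b over the 20 run 3 libraries, of 10181 compared, were Use1 and Zfp36l1 (Pearson r of log2 CPM 0.988 each). This r describes libraries that fall into treatment groups and share batches.

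In run 2 Wnt5b varied with batch inside groups. It was at 23.9 and 21.8 CPM in the GapmeR controls (P17, P18) and at 16.2 and 9.09 CPM in the libraries labelled total knockdown. The plasmid controls held 22.2, 14.2 and 2.49 CPM in P17, P18 and P19, and the overexpression libraries 5.64, 3.53 and 2.08 CPM. Each overexpression library was below its own batch's control (log2 ratios -1.98, -2.01 and -0.26), but the low P19 control overlapped the overexpression range. Wnt5b did not pass the test (adjusted p = 0.255 for a log2 fold change of -1.79, SE 0.673). With batch as a block the adjusted p was 0.011, and without plasmid control replicate 3, the P19 library, it was 0.0168. It was 0.0181 without batch P19 and 2.34e-11 with no filter on low counts. With no filter the log2 fold change was -1.81 and the SE 0.244. The other alternatives, among them DESeq2, RLE scaling and only the compared groups, did not call Wnt5b. The labelled total knockdown gave -0.86 on the log2 scale (adjusted p = 0.739, SE 0.779), and passed only with no filter on low counts (-0.87, adjusted p = 0.0486).

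**Figure D2:**
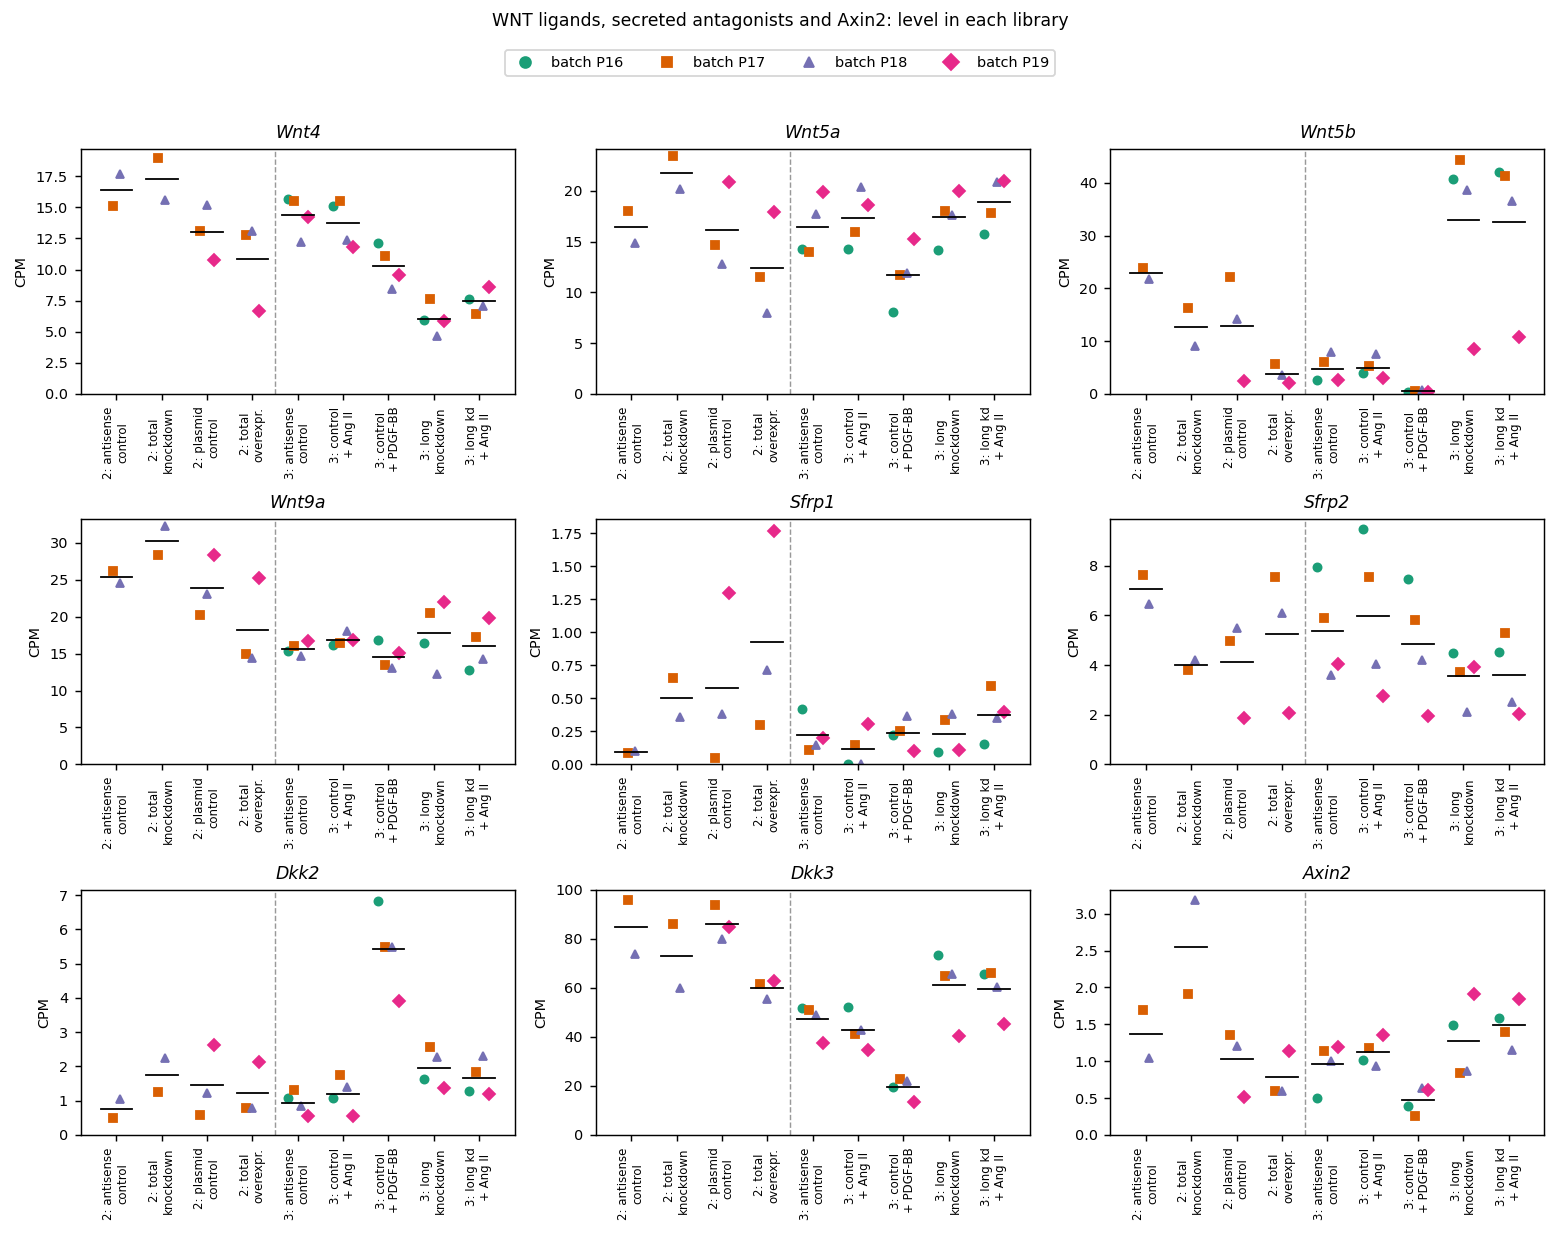
CPM of each of 9 genes (Wnt2, at 0 in nearly every library, is left out) in every library by group, with run 2 left of the dashed line and run 3 right of it. Symbols and colours give the batch and black lines the group mean. Wnt5b stands at 8.54 to 44.3 CPM with long knockdown against 2.61 to 7.88 in the untreated controls, and Dkk2 at 3.92 to 6.84 CPM with PDGF-BB.

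Wnt4 moved opposite to Wnt5b under long knockdown. Its untreated controls in run 3 were at 15.7, 15.5, 12.2 and 14.2 CPM (P16 to P19). The knockdown libraries were at 5.98, 7.62, 4.68 and 5.89 CPM. The groups did not overlap, and the log2 ratio was between -1.40 and -1.03 in each batch. Wnt4 fell from 14.4 ± 1.63 to 6.04 ± 1.21 CPM (adjusted p = 4.93e-06 for a log2 fold change of -1.25, SE 0.152).

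Under angiotensin II, Wnt4 was at 15.1, 15.5, 12.4 and 11.8 CPM in controls and 7.65, 6.42, 7.09 and 8.62 CPM with knockdown. Again no libraries overlapped between the groups (adjusted p = 0.000224 for a log2 fold change of -0.88, SE 0.151). The difference between the 2 knockdown effects, the interaction, was 0.38 for Wnt4 (SE 0.213, adjusted p = 1). PDGF-BB libraries were at 12.1, 11.1, 8.43 and 9.57 CPM, just below the lowest untreated control at 12.2. This smaller fall passed the test (adjusted p = 0.0114 for a log2 fold change of -0.49, SE 0.147), and missed it without PDGF-BB replicate 3 (adjusted p = 0.0528). In run 2, Wnt4 was at 15.1 and 17.7 CPM in GapmeR controls and at 19 and 15.6 CPM in the libraries labelled total knockdown. It was at 13.1, 15.2 and 10.8 CPM in plasmid controls and at 12.8, 13.1 and 6.65 CPM with overexpression, and neither change passed the test.

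Wnt5a, the close paralogue of Wnt5b, did not pass the test under long knockdown. Its run 3 levels were 14.3, 14, 17.7 and 19.9 CPM in untreated controls and 14.2, 18, 17.6 and 20 CPM with long knockdown. These ranges overlapped almost fully (adjusted p = 0.761 for a log2 fold change of 0.08, SE 0.165). With PDGF-BB it was at 8.08, 11.7, 11.9 and 15.3 CPM. Each of these libraries was below its batch's control, with overlapping group ranges, and Wnt5a fell by 0.49 on the log2 scale (SE 0.168, adjusted p = 0.0227). The call was lost without control replicate 3 (adjusted p = 0.0629), control replicate 4 (0.0954) or PDGF-BB replicate 1 (0.0774). Under angiotensin II long knockdown gave 15.8, 17.8, 20.9 and 21 CPM against 14.3, 16, 20.4 and 18.6 CPM (adjusted p = 0.625 for a log2 fold change of 0.12, SE 0.166). With overexpression in run 2 Wnt5a was at 11.5, 7.95 and 17.9 CPM against 14.7, 12.8 and 20.9 CPM, lower in 3 of 3 batches with overlapping ranges (adjusted p = 0.59 for a log2 fold change of -0.37, SE 0.286, and 0.0345 with the batch block). The libraries labelled total knockdown, at 23.4 and 20.2 CPM, were above their controls at 18 and 14.9 CPM (adjusted p = 0.715 for a log2 fold change of 0.41, SE 0.347, and 0.0682 with the block).

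Wnt9a, a ligand mostly studied in joint and skeletal development, was called in no comparison of run 3. Group means lay between 14.6 ± 1.8 CPM (PDGF-BB) and 17.8 ± 4.36 CPM (long knockdown), and all neighbouring groups overlapped. Its log2 fold change was 0.18 with long knockdown (SE 0.15, adjusted p = 0.395), -0.07 with long knockdown under angiotensin II (SE 0.151, adjusted p = 0.754) and -0.11 with PDGF-BB (SE 0.151, adjusted p = 0.596). In run 2 it was at 20.2, 23.1 and 28.4 CPM in plasmid controls and 14.9, 14.4 and 25.2 CPM with overexpression, lower in 3 of 3 batches (adjusted p = 0.441 for a log2 fold change of -0.39, SE 0.22, and 0.0241 with the batch block). The libraries labelled total knockdown, at 28.4 and 32.2 CPM, were above their controls at 26.2 and 24.5 CPM (adjusted p = 0.778 for a log2 fold change of 0.26, SE 0.267).

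Dkk2 was the gene of the set that PDGF-BB raised. Untreated controls of run 3 held 1.09, 1.3, 0.848 and 0.542 CPM (P16 to P19). PDGF-BB libraries held 6.84, 5.49, 5.48 and 3.92 CPM, 77 to 122 counts each. Every PDGF-BB library was above every library of the other 4 run 3 groups. Dkk2 had means of 0.945 ± 0.326 and 5.43 ± 1.2 CPM and a fitted rise of 5.8-fold (adjusted p = 3.63e-06 for a log2 fold change of 2.54, SE 0.329), with log2 ratios of 2.08 to 2.85 within batches. The genes most like it over the 20 run 3 libraries were G2e3 (Pearson r 0.936) and Rtel1 (0.922), a description over grouped libraries.

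Long knockdown also raised Dkk2, by less. The libraries were at 1.63, 2.56, 2.28 and 1.38 CPM, above the untreated control range of 0.542 to 1.3 CPM. Dkk2 rose by 1.07 on the log2 scale (adjusted p = 0.0234, SE 0.336). The call was lost in 4 of the 8 fits that left out 1 library: without control replicate 3 (0.0556), control replicate 4 (0.0868), knockdown replicate 2 (0.0817) or knockdown replicate 3 (0.0641). Under angiotensin II the knockdown libraries were at 1.28, 1.83, 2.3 and 1.2 CPM and the controls at 1.08, 1.76, 1.4 and 0.555 CPM. These overlapped (adjusted p = 0.354 for a log2 fold change of 0.44, SE 0.337), and the interaction was -0.62 (SE 0.475, adjusted p = 1). In run 2 the libraries labelled total knockdown held 1.25 and 2.24 CPM of Dkk2 against 0.49 and 1.04 CPM in controls, 25 and 50 counts against 11 and 21. They did not overlap and were higher in 2 of 2 batches, and Dkk2 did not pass the test (adjusted p = 0.605 for a log2 fold change of 1.20, SE 0.774, and 0.0747 with the block). With overexpression it was at 0.799, 0.778 and 2.13 CPM against 0.585, 1.21 and 2.61 CPM (adjusted p = 0.907 for a log2 fold change of -0.23, SE 0.623).

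Dkk3 fell with PDGF-BB while Dkk2 rose. Its untreated controls were at 51.9, 51, 48.9 and 37.4 CPM and the PDGF-BB libraries at 19.7, 22.9, 21.9 and 13.3 CPM. All PDGF-BB libraries were below all libraries of the other run 3 groups. Dkk3 fell from 47.3 ± 6.72 to 19.4 ± 4.29 CPM (adjusted p = 3.61e-05 for a log2 fold change of -1.28, SE 0.194). Long knockdown gave 73.3, 65, 65.7 and 40.5 CPM, above its own batch's control in 4 of 4 batches with log2 ratios of 0.12 to 0.50. The ranges overlapped through P19, the lowest batch in both groups. Dkk3 did not pass the test (adjusted p = 0.156 for a log2 fold change of 0.37, SE 0.187). It passed with the batch block (adjusted p = 0.000416) and without batch P19 (log2 fold change 0.42, adjusted p = 0.000104), or with only the P19 knockdown library left out (0.0207). The other alternatives did not call Dkk3.

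Under angiotensin II, Dkk3 was at 52.4, 41.2, 42.7 and 34.5 CPM in controls and 65.7, 66.2, 60.3 and 45.3 CPM with knockdown. It was higher in 4 of 4 batches (adjusted p = 0.0692 for a log2 fold change of 0.48, SE 0.188, and 1.6e-05 with the batch block). It also passed by DESeq2 (0.0393), with only the compared groups (0.0368), without batch P19 (1.84e-05), without control replicate 1 (0.0424) and without knockdown replicate 4 (0.0248). The remaining alternatives did not call Dkk3. With CASC15 overexpression in run 2 it was at 61.5, 55.6 and 62.8 CPM, below the plasmid controls at 93.9, 80.1 and 84.9 CPM. The groups did not overlap, but the difference did not pass the test (adjusted p = 0.142 for a log2 fold change of -0.53, SE 0.153). The batch block gave 0.00172, DESeq2 0.045 and no filter on low counts 0.0058, and the other alternatives did not call Dkk3. The libraries labelled total knockdown, at 86.2 and 60 CPM, overlapped their controls at 96 and 74 CPM. Dkk3 and Wnt5b had a Pearson r of 0.917 over the 20 run 3 libraries, which share groups and batches.

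Sfrp2 was highest in batch P16 in 4 of the 5 run 3 groups. In untreated controls it was at 7.94, 5.9, 3.59 and 4.03 CPM from P16 to P19, and with angiotensin II at 9.49, 7.55, 4.03 and 2.77 CPM. P16 was the highest library in these groups and with PDGF-BB (7.46, 5.8, 4.21 and 1.93 CPM). Long knockdown libraries were at 4.48, 3.73, 2.12 and 3.93 CPM, lower than their batch's control in 4 of 4 batches (adjusted p = 0.337 for a log2 fold change of -0.58, SE 0.425, and 0.0531 with the block). The knockdown under angiotensin II gave -0.74 (adjusted p = 0.216, SE 0.428), lower in 4 of 4 batches, and 0.0151 with the block. PDGF-BB gave -0.15 (SE 0.419, adjusted p = 0.801). In run 2 the libraries labelled total knockdown, at 3.81 and 4.21 CPM, lay below the controls at 7.62 and 6.47 CPM (log2 fold change -0.81, adjusted p = 0.658, and 0.0259 with the block). Overexpression libraries held 7.54, 6.1 and 2.08 CPM against 4.95, 5.5 and 1.87 CPM, higher in 3 of 3 batches with overlapping ranges (adjusted p = 0.786 for a log2 fold change of 0.35, SE 0.485).

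Sfrp1 had 0 to 11 counts in any run 3 library. In run 2 it had 2 counts in each GapmeR control and 13 and 8 counts in the libraries labelled total knockdown. The ratio of these pooled counts, scaled for library size, was 5.3 with an exact 95% interval of 1.79 to 21.2 that covers counting error only. Sfrp1 did not pass the test across libraries (adjusted p = 0.558). Its highest levels, 1.3 CPM in a plasmid control and 1.77 CPM in an overexpression library, both came from P19. Overexpression gave 0.71 on the log2 scale (adjusted p = 0.769, SE 0.914), higher in 3 of 3 batches with overlapping ranges.

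Axin2, a direct target of beta-catenin signalling that feeds back on it, was low throughout. Untreated controls of run 3 held 0.504, 1.14, 0.997 and 1.19 CPM, 12 to 35 counts. PDGF-BB libraries held 0.393, 0.257, 0.632 and 0.611 CPM, each below its batch's control, with overlapping group ranges. Axin2 fell by 1.00 on the log2 scale (SE 0.365, adjusted p = 0.0317). This call held in 7 of 15 alternative fits, whose adjusted p ran from 0.0106 to 0.101. It was lost without control replicate 2 (0.0704), 3 (0.0616) or 4 (0.0936), without PDGF-BB replicate 1 (0.0703) or 2 (0.101), without batch P19 (0.0689), with no filter (0.0792) and with only the compared groups (0.058). Long knockdown gave 1.49, 0.835, 0.87 and 1.91 CPM (adjusted p = 0.383 for a log2 fold change of 0.42, SE 0.335), higher in 2 of 4 batches. Under angiotensin II the knockdown libraries held 1.59, 1.4, 1.15 and 1.84 CPM and the controls 1.01, 1.18, 0.934 and 1.36 CPM. Axin2 was higher there in 4 of 4 batches, with overlapping ranges (adjusted p = 0.386 for a log2 fold change of 0.42, SE 0.334). With overexpression in run 2 it was at 0.599, 0.598 and 1.14 CPM against 1.35, 1.21 and 0.51 CPM (adjusted p = 0.752 for a log2 fold change of -0.39, SE 0.477), lower in 2 of 3 batches. The libraries labelled total knockdown held 1.91 and 3.18 CPM against 1.69 and 1.04 CPM in controls (adjusted p = 0.58 for a log2 fold change of 0.89, SE 0.547).

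The genes whose log2 CPM most resembled the other members over the 20 run 3 libraries were named by Pearson r, again as a description of libraries that share groups and batches. They were Slc7a7 (0.942) and Psme1 (0.941) for Wnt4, Pou6f1 (0.986) and Ypel3 (0.981) for Dkk3, and Bves (0.928) and Maf (0.903) for Wnt5a. For Axin2 they were Crebl2 (0.881) and Tspyl1 (0.88), and for Sfrp2 Glrx (0.846) and Plpp3 (0.841). Wnt9a had the lowest values, 0.712 with Bloc1s3 and 0.669 with Tfcp2l1.

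**Figure D3:**
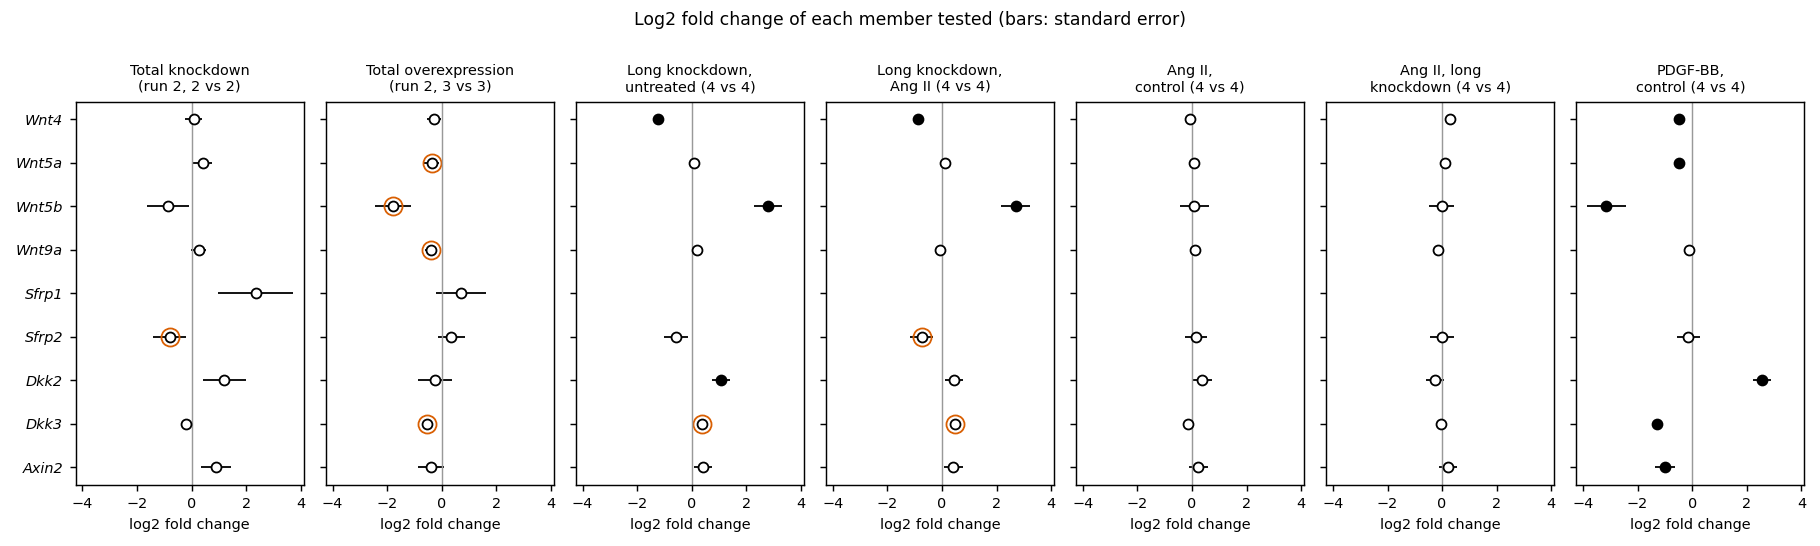
Log2 fold change of each tested gene (points; bars, SE) in the 7 comparisons between 2 groups. Filled points passed an adjusted p of 0.05 in the edgeR test without a block, and orange rings mark open points that passed with batch as a block. With PDGF-BB 6 points are filled, with long knockdown 3, and with either use of angiotensin II 0.

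Counted together, 6 of the 8 genes tested changed with PDGF-BB, 1 higher (Dkk2) and 5 lower (Wnt4, Wnt5a, Wnt5b, Dkk3, Axin2). Over all 15103 genes tested in run 3, 43.6% were called in that comparison, 23.6% higher and 20% lower. With the batch block 6 of 8 were again called, against 54.5% of all genes, and neither excess over the background was tested. The median log2 fold change was -0.49 over the 8 and -0.02 over all genes.

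With long knockdown in untreated cells 3 of 8 were called, 2 higher (Wnt5b, Dkk2) and 1 lower (Wnt4). All genes were called at 25%, 12.3% higher and 12.8% lower, and the block gave 4 of 8 (with Dkk3) against 40.6%. Under angiotensin II 2 of 8 were called, Wnt5b higher and Wnt4 lower. There 26.7% of all genes were called, 13.4% higher and 13.3% lower, and the block gave 4 of 8 (with Sfrp2 lower and Dkk3 higher) against 41.3%. Against these backgrounds 3 of 8 and 2 of 8 are no result about the genes as a group. Median log2 fold changes were 0.28 and 0.27 over the 8 genes, against 0.02 and 0.01 over all genes.

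Angiotensin II changed none of the 8 genes by edgeR, in control cells or with long knockdown, and no interaction was called. In each of these 3 comparisons 0% of all genes were called, no gene of the 8 had an unadjusted p under 0.05, and DESeq2 called 0 of the 8. With the block no gene was called either, and 0, 1 and 1 of the 8 had an unadjusted p under 0.05 in control cells, with knockdown and for the interaction. Over all 15103 genes 156, 174 and 166 had an unadjusted p under 0.05 without the block, and 262, 324 and 326 with it. DESeq2 called 1, 0 and 1 of all genes. The log2 fold changes of the 8 ran from -0.15 (Dkk3) to 0.38 (Dkk2) in control cells and from -0.25 (Dkk2) to 0.30 (Wnt4) with knockdown.

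In run 2 edgeR called 0 of the 9 genes tested in either comparison, where 2.07% of all 15350 genes were called for the labelled total knockdown and 1.65% for overexpression. At an unadjusted p under 0.05 the counts were 0 and 2 of 9, against 1975 and 2295 of all 15350 genes. DESeq2 called 0 and 1 of the 9, against 719 and 807 of all genes. With the batch block 1 of 9 was called for the labelled total knockdown (Sfrp2, lower), against 14.4% of all genes. For overexpression the block called 4 of 9, all lower (Wnt5a, Wnt5b, Wnt9a, Dkk3), against 17.7%. The overexpression effect minus the labelled total knockdown effect was called for 0 of 9 (all genes 1.23%). This difference had an unadjusted p under 0.05 for 0 of 9, against 1770 of all genes. DESeq2 called it for 0 of 9, against 526 of all genes. With the block it was called for Wnt5a, Wnt9a and Sfrp2, 3 of 9, against 9.41%.

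**Figure D4:**
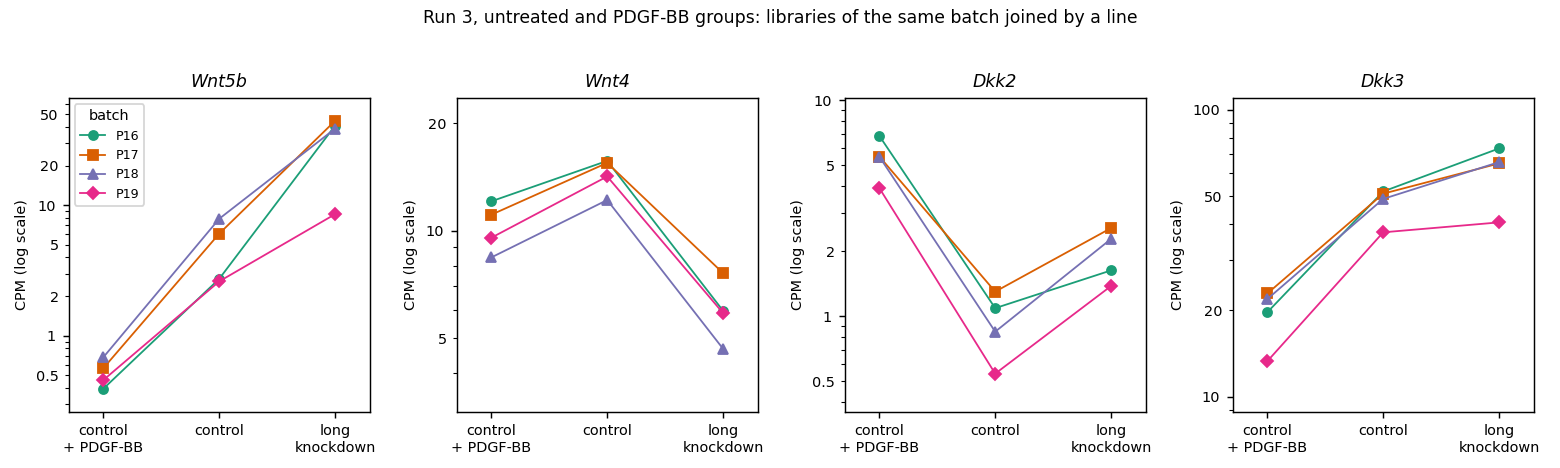
CPM (log axis) of Wnt5b, Wnt4, Dkk2 and Dkk3 in run 3, with a line joining the 3 libraries of each batch: control with PDGF-BB, untreated control, and long knockdown. The Wnt5b lines rise from 0.393 to 0.685 CPM on the left to 8.54 to 44.3 CPM on the right, and the Dkk2 lines are highest with PDGF-BB in 4 of 4 batches.

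Of the 92 other WNT pathway genes listed, 56 were tested in run 3 and 61 in run 2. Of the 14 other ligands 6 had at most 3 counts in every library, as had 5 of the 10 other secreted antagonists and 3 of the 5 secreted agonists (R-spondins and Ndp). Only 2 other ligands could be tested in run 3. With PDGF-BB 28 of 56 were called, 6 higher and 22 lower, where 43.6% of all genes were called, 23.6% higher and 20% lower. The lower genes included Porcn, whose product lipid-modifies WNTs for secretion, with a log2 fold change of -0.67 (adjusted p = 0.0436). This call was lost in 6 of the 8 fits that left out 1 library (adjusted p 0.0564 to 0.128, all but control replicate 4 and PDGF-BB replicate 1) and with only the compared groups (0.0802). Sfrp4, a further Frizzled-related antagonist, was at 1.39 ± 0.555 CPM against 2.13 ± 0.326 in controls, -0.62 on the log2 scale (adjusted p = 0.0386). It too missed the threshold without any one of control replicates 1 to 3 or PDGF-BB replicates 2 to 4 (0.067 to 0.109), without batch P19 (0.0829), with no filter (0.124) and with only the compared groups (0.1).

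Of the 8 Frizzled receptors tested with PDGF-BB, 6 were called lower and 1, Fzd4, higher, where 20% and 23.6% of all genes were, and the family was not tested as a group. Fzd8 fell from 141 ± 11.7 to 65 ± 6.86 CPM (adjusted p = 5.26e-08 for a log2 fold change of -1.11, SE 0.104). Fzd1 fell from 43.9 ± 5.44 to 20.3 ± 2.42 CPM (-1.11, SE 0.106, adjusted p = 7.18e-08). Fzd2 (-0.62) and Fzd3 (-0.67) were called lower too, Fzd3 not without PDGF-BB replicate 3 (adjusted p = 0.0541) or with no filter (0.0534). Fzd4 rose from 60 ± 9.85 to 100 ± 15.9 CPM (0.74, SE 0.144, adjusted p = 0.000382). The receptor kinase Ror1, which binds Wnt5a, had a log2 fold change of -0.54, and the pseudokinase Ptk7 -1.02. Among planar cell polarity genes Celsr2 (-0.94) and Prickle2 (-0.81) were lower, and the matricellular gene Ccn5 was lower (-2.22, with overlapping ranges).

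Long knockdown called 13 of the 56 pathway genes in untreated cells, 8 higher and 5 lower, and 18 under angiotensin II, 11 higher and 7 lower. The shares over all genes were 25% and 26.7%, near these counts. With the block 31 of 56 were called in each, against 40.6% and 41.3% of all genes, and 36 of 56 with PDGF-BB, against 54.5%, differences from the background that were not tested. Lgr6, an R-spondin receptor, fell from 32.2 ± 3.79 to 11.5 ± 5.88 CPM (adjusted p = 0.000655 for a log2 fold change of -1.49, SE 0.276) and by 1.39 under angiotensin II. Fzd1 rose from 43.9 ± 5.44 to 63.4 ± 6.82 CPM (0.53, SE 0.102, adjusted p = 0.000678), and had a log2 fold change of 0.77 under angiotensin II. The co-receptor Lrp6 rose from 151 ± 10.7 to 204 ± 10.8 CPM (0.43, adjusted p = 6.26e-05), and Ror1 had a log2 fold change of 0.35 (adjusted p = 0.0473). The Ror1 call was lost in 5 of the 8 fits that left out 1 library, namely control replicates 1 (0.0799) and 4 (0.171) and knockdown replicates 1 (0.101), 2 (0.147) and 3 (0.106), with no filter (0.0525) and with only the compared groups (0.0634). The kinase gene Gsk3b rose from 159 ± 10.3 to 217 ± 5.53 CPM (0.44, adjusted p = 9.3e-06). Tcf7l1, a TCF factor known mainly as a repressor, rose from 24.9 ± 1.77 to 38.3 ± 5.91 CPM (0.63, adjusted p = 0.000975). Fzd6 (-0.45), the tankyrase gene Tnks (-0.33) and Celsr1 (-1.39, overlapping ranges) were lower, and Prickle2, Daam1 and Dvl1 were higher by 0.31 to 0.35. Celsr1 missed the threshold without control replicate 2 (0.0596) or knockdown replicate 1 (0.0577), and Dvl1 without knockdown replicate 2 (0.0524). Under angiotensin II the knockdown also gave Znrf3, a ubiquitin ligase that clears Frizzled from the cell surface, a log2 fold change of -0.42 (adjusted p = 0.00383). Ror1 had 0.41 there (adjusted p = 0.0209), which was lost without control replicate 4 (0.0717) or knockdown replicate 2 (0.07) or 3 (0.0546). Ccn4, a matricellular target gene, had -0.38 (adjusted p = 0.0393), which was lost in 6 of 8 fits leaving out 1 library (0.0604 to 0.14, all but control replicate 1 and knockdown replicate 4), with no filter (0.136) and with only the compared groups (0.052). Under angiotensin II alone no pathway gene was called in either background.

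**Figure D5:**
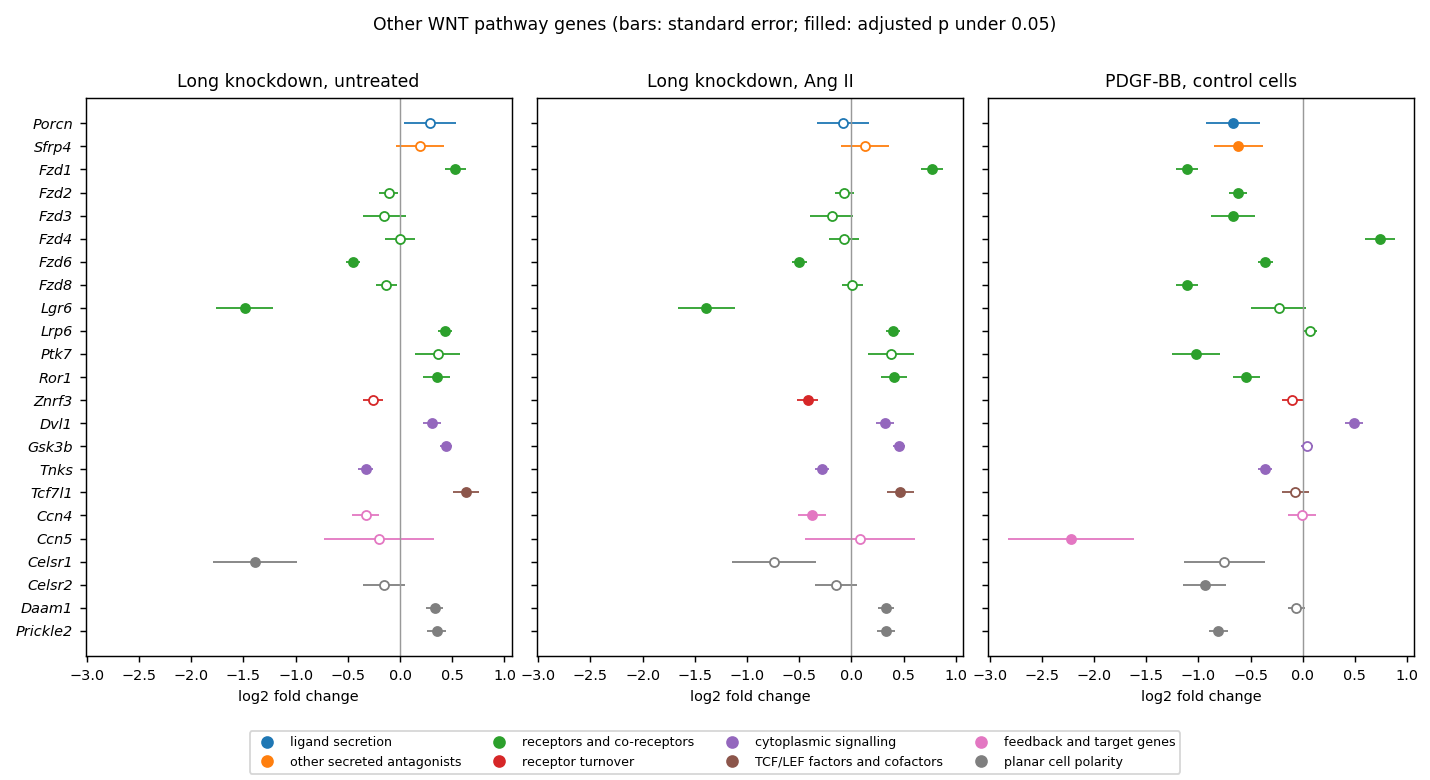
Log2 fold change (points; bars, SE) of the named pathway genes in the 3 run 3 comparisons with calls, coloured by role. Filled points passed an adjusted p of 0.05, among them Fzd1, at 0.53 and 0.77 with long knockdown and -1.11 with PDGF-BB.

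In run 2 overexpression changed 1 of 61 pathway genes, Fzd1, which fell from 105 ± 16.4 to 54.7 ± 1.07 CPM (adjusted p = 0.00909 for a log2 fold change of -0.94, SE 0.132), against 1.65% of all genes. The block called 25, against 17.7%. The labelled total knockdown called 2 of 61, against 2.07% of all genes, and 16 with the block, against 14.4%. Celsr3, a planar cell polarity cadherin, had 102 and 274 counts against 1 and 3 in controls, a ratio of 94.9 with an exact 95% counting interval of 36.8 to 350. Rnf43, a ubiquitin ligase that removes Frizzled from the cell surface, had 25 and 40 counts against 0 and 0. It was at least 10.8-fold higher against a floor of 3 counts per library, and was named after its values were seen. Both genes passed the filter on low counts only through the group in which they were high, so their calls are given as a description. Leaving out 1 library ended the Celsr3 call in 3 of 4 fits (without either control or without the second library of the labelled knockdown) and the Rnf43 call in 4 of 4. The leukocyte list moved with this group through Cd68: its 5 markers summed to 16.1 to 16.5 CPM against 0.445 to 0.642 in controls, with Ptprc, Adgre1 and Cd3e at 3 counts or fewer. Of the 7 smooth muscle markers 1, Myh11, was called higher too (5.49 against 0.989 CPM), with list sums of 194 to 212 against 175 to 195 CPM. The endothelial sum (6.02 to 9.99 against 2.81 to 3.9 CPM, Cdh5 at 3 counts or fewer) and the epithelial sum (72.5 to 95.4 against 44.2 to 45.1 CPM, Epcam and Krt18 at 3 counts or fewer) lay above their controls, while the fibroblast sum (44 to 52.2 against 55.9 to 62.5 CPM) and the neural and glial sum (23.1 to 23.8 against 24.5 to 26.6 CPM, Sox10 and Elavl4 at 3 counts or fewer) lay below. No marker of these 4 lists was called. With overexpression no marker of any list was called. The epithelial sum was 66.4 to 150 CPM against 44.6 to 64.1 in plasmid controls and the neural and glial sum 6.58 to 12.1 against 13.4 to 18.4 CPM, with the same markers at 3 counts or fewer, and the sums of the other 4 lists overlapped. The part of these markers in the run 2 results was not tested.

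Markers of other cell types were read in the run 3 groups against the 25% of all genes called with long knockdown and the 43.6% called with PDGF-BB. Of 4 epithelial markers 2 were tested, and both were called lower with knockdown (Cdh1, Krt8). Krt8 passed the filter on low counts only through groups without the knockdown, so its call is given as a description. The epithelial list summed to 36.6 to 69.9 CPM against 97.6 to 129 in controls, with Epcam and Krt18 at 3 counts or fewer in the knockdown. With PDGF-BB it summed to 157 to 199 CPM, with 1 of 2 called higher (Cdh1). Of 5 fibroblast markers 3 were tested, 2 called higher and 1 lower with knockdown, and 1 higher and 2 lower with PDGF-BB. Their sums overlapped, at 30.8 to 84.3 CPM with knockdown, 44.7 to 81.7 with PDGF-BB and 38.4 to 73 in controls. Of 5 endothelial markers 2 were tested, and 1 (Vwf) was called higher with knockdown, with sums of 1.91 to 3.78 against 1.25 to 2.65 CPM and Cdh5 at 3 counts or fewer. Vwf, at most at 0.339 CPM without the knockdown in run 3, passed the filter on low counts only through the knockdown groups. Its call is given as a description. With PDGF-BB 1 of the 2 endothelial markers tested (Pecam1) was called lower, with sums of 0.356 to 1.05 CPM, below every control, and Cdh5 and Tek at 3 counts or fewer. Of 7 smooth muscle markers 6 were tested, 2 called higher and 1 lower with knockdown (231 to 328 CPM against 240 to 274), and 1 each way with PDGF-BB (195 to 219 CPM). Myh11, called higher with knockdown, was at most at 0.392 CPM without it in run 3. It passed the filter on low counts only through the knockdown groups, so its call is given as a description. Of 4 neural and glial markers 2 were tested, 1 called each way with knockdown (21.3 to 28.1 against 26.6 to 42.6 CPM) and 1 higher with PDGF-BB (32.9 to 65.7 CPM), with Sox10 and Elavl4 at 3 counts or fewer. Of 5 leukocyte markers 1 was tested and not called, with sums of 0.544 to 2.12 CPM with knockdown, 0.662 to 1.74 with PDGF-BB and 0.596 to 1.13 in controls.

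With long knockdown under angiotensin II, where 26.7% of all genes were called, both tested epithelial markers (Cdh1, Krt8) were lower, and the list summed to 35.4 to 64.5 CPM against 104 to 128 in controls, with Epcam and Krt18 at 3 counts or fewer. The fibroblast list had 1 of 3 tested markers called each way (Pdgfra, Pi16; 32 to 76.3 against 37.2 to 72.5 CPM) and the smooth muscle list 2 of 6 higher and 1 lower (Myh11, Smtn, Myocd; 253 to 335 against 245 to 288 CPM). Vwf, 1 of 2 endothelial markers tested, was called higher (2.24 to 4.16 against 0.863 to 2.22 CPM, Cdh5 at 3 counts or fewer). Vwf and Myh11 passed the filter on low counts only through the knockdown groups, and Krt8 only through groups without the knockdown. Their calls are given as a description. Tubb3, 1 of 2 neural and glial markers tested, was called lower (21.5 to 26.5 against 27.9 to 45.8 CPM, Sox10 and Elavl4 at 3 counts or fewer). The 1 leukocyte marker tested was not called (0.799 to 1.35 against 0.588 to 1.08 CPM). The part of these markers in the WNT gene changes was not tested.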

How the data were processed

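RNA-seq of 30 libraries was used as the gene table of RSEM expected counts that the authors deposited, not whole for 2099 to 5309 genes a library and rounded here. The submitters' processing notes name STAR 2.7.11b and RSEM 1.3.1 and both the GRCm39 and mm10 builds, with no role. Of 78334 identifiers, 51486 matched a GENCODE M21 symbol, with 98.7% of the counts; exon lengths are from the same annotation. Each run was fitted apart, all its groups sharing 1 estimate of the spread, with edgeR 4.0.16 (R 4.3.3) quasi-likelihood tests after TMM scaling and filterByExpr (minimum count 10, minimum total 15). P-values were Benjamini-Hochberg adjusted over all genes tested and called under 0.05. The tests were checked on simulated data drawn without a batch effect, so this check does not cover libraries that share a batch.

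The replicate numbers follow the batch label, so they pair the libraries. Same-numbered libraries deviated together in each 2-group comparison, with a mean correlation of 0.184 to 0.499. The block fits add this batch.

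The genes and pathway and marker lists were chosen with earlier results of these data known. All 10 genes are described, and in each comparison up to 12 called pathway genes are named, of mean CPM 1 or more, by absolute log2 fold change. Rnf43 was named after its values were seen. Per gene, the 2 most correlated genes of mean CPM 5 or more are given. Alternatives were DESeq2 1.42.0, RLE scaling, no filter, a filter at a mean CPM of 1, fits of the compared groups alone, the batch block and leaving out each library; leaving out batch P19 was added after seeing the data. Intervals cover counting error only.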

Additional observations from a re-analysis of the deposited data

Results flagged for a closer look

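In the long knockdown libraries of run 3 without treatment, Wnt5b stood at 8.54 CPM in batch P19, while the other 3 libraries were at 38.6 to 44.3 CPM. The gap between P19 and the nearest of the others was 0.841 of the group's whole range, above Dixon's critical value for 4 libraries at 95%. Of 42 groups of levels examined in this way this was the only one past its critical value, and chance passes about 1 in 20. The Wnt5b control of the same batch, at 2.61 CPM, was the lowest of its group. P19 was also lowest with long knockdown under angiotensin II, at 10.7 CPM against 36.6 to 42.1, short of the critical value. In the plasmid controls of run 2 it was lowest too, at 2.49 CPM against 22.2 and 14.2. With PDGF-BB P19, at 0.458 CPM, was above P16, at 0.393 CPM. The rise with knockdown in untreated cells was present within P19 (log2 ratio 1.71), and the cause of the low P19 values was not tested.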

How the results depend on the processing

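No gene of the set that passed the test changed direction in any alternative. Among the fold changes of all tested genes of the set, in every comparison, 1100 stayed on the same side of the threshold, 24 newly passed and 16 no longer did, and 58 fold changes of all named genes that neither fit called changed sign. Of the fold changes of named pathway genes and CASC15, 666 stayed and 46 no longer passed, and none reversed. With the replicate block (batch), the pairing changed the calls named in the report. It called 1 gene of the set for the labelled total knockdown, 4 for overexpression, 3 for the difference of these effects and 4 for long knockdown under angiotensin II. The block called 2209, 2721 and 1445 of all genes in the first 3 of these, 6126 for long knockdown untreated and 6238 under angiotensin II, against 317, 253, 189, 3783 and 4033 without it.

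For the labelled total knockdown, 719 genes were called by DESeq2, 1325 with no filter, 190 when the mean CPM had to reach 1, 1041 without batch P19 and 1079 with only the groups compared. Leaving out 1 library gave 4 to 188, and the lone library then left is assumed to vary like the other groups. For overexpression the same settings gave 807, 1363, 270, 844 and 66, with 86 to 867 leaving out 1 library. For the difference of effects they gave 526, 968, 148 and 376, with 13 to 271 leaving out 1 library; its 4 groups are all of run 2, so the fit on only the groups compared was not run. Without batch P19 long knockdown untreated called 6062 genes. Angiotensin II in control cells and the interaction each called 1 gene by DESeq2 and 1 with only the groups compared.

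Of the set, no filter called 1 gene for the labelled total knockdown (Wnt5b) and 2 for overexpression (Wnt5b and Dkk3), where DESeq2 and the fit without batch P19 each called 1 and leaving out 1 library 0 to 1. Leaving out 1 library gave 4 to 6 with PDGF-BB, 2 to 4 with long knockdown untreated and 2 to 3 under angiotensin II. Over all genes these fits called 5601 to 6624, 2889 to 4882 and 3042 to 4880. Axin2, Sfrp1 and Dkk2, and Wnt5b with PDGF-BB, rest on few counts a library in at least 1 group. How far this limited their calls was not tested, and the Dkk2 and Wnt5b calls with PDGF-BB held in every alternative.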
